A study of Homo sapiens with 6 samples.

Results

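The genes of the plasminogen activators, their receptor and a pair of their inhibitors were followed in HGC-27 cells with and without a knockdown of ACAT2. The members were the rows of the deposited expression table named PLAU, PLAT, PLAUR, SERPINE2 and SERPINB2, taken by gene name with no threshold on their values, and they made up 5 of 58735 genes. HGC-27 is an established line of undifferentiated human gastric carcinoma. Cells labelled WT in genotype received the control vector pSIH-H1-Puro-shNC (shNC), and ACAT2-knockdown cells received pSIH-H1-Puro-shACAT2, a vector for a short hairpin RNA against ACAT2 (shACAT2). Both groups were transfected for 24 h and kept under puromycin for 7 days, and each was sequenced as 3 RNA-seq libraries. The labels do not tell which ACAT2 hairpin was used, and both groups come from a single cell line carried as selected cells.

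Plasminogen activators are secreted serine proteases that cleave plasminogen to plasmin, which dissolves fibrin and degrades extracellular matrix. Urokinase, encoded by PLAU, is held at the cell surface by its receptor uPAR, encoded by PLAUR, whereas the tissue-type activator, encoded by PLAT, works mainly on fibrin. Both activators are blocked by serpins, inhibitors that trap a protease in a covalent complex, among them protease nexin 1 (SERPINE2) and plasminogen activator inhibitor 2 (SERPINB2). In carcinomas the urokinase branch is known for its part in invasion.

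The promoter sequences of urokinase and of its receptor are shown because these genes are the partners whose order by FPKM differed between the groups. They are the 250 bases before a start site in RefSeq (GRCh38.p14), written 5′ to 3′ on the strand of the gene, and capitals mark matches on either strand to the AP-1 motif TGANTCA, the TEAD motif GGAATG, the GC box GGGCGG or the TATA box TATAAA. The first PLAU start has its window at chr10:73910360-73910609 and the second at chr10:73910882-73911131, both on the plus strand, and the PLAUR window is chr19:43670170-43670419 on the minus strand.
PLAU, first start: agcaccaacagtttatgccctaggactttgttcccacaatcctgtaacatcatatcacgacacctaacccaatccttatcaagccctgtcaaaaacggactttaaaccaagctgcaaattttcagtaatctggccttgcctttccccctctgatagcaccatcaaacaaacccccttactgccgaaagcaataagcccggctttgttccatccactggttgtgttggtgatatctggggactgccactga
PLAU, second start: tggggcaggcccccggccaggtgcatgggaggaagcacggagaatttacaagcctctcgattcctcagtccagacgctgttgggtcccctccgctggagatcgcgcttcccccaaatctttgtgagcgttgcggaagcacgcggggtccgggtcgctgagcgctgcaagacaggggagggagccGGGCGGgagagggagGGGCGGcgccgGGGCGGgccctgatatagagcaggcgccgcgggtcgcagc
PLAUR: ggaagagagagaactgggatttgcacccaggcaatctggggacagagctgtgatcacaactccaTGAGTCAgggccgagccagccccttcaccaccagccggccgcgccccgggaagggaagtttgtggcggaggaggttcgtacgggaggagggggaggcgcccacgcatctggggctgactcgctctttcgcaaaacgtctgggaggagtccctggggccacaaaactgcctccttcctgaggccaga
The window of the second PLAU start held 3 GC boxes, with their first bases at −66, −51 and −40 from the start. The window of the first PLAU start held no match to these motifs. The PLAUR window held an AP-1 match at −186. Over the 35116 RefSeq promoter windows of the same length, 42.6% held a GC box, 6.57% an AP-1 match, 11.9% a TEAD match and 10.7% a TATA box. A match is a matter of letters only and was not tied to the levels below.

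Levels are given as FPKM, as deposited, which scale fragments by gene length and by a size for each library. The number of fragments behind each value could be read back as a whole number in 100% of the values, and 14086416 to 16067486 fragments per library lay on genes. The size implied by the deposited scale differed from these sums. It was 1.52e+07 against 15867286 in shACAT2-1 and 1.62e+07 against 15082403 in shNC-2. ACAT2 itself fell, from 12.9 ± 1.25 to 5.90 ± 0.388 FPKM (SD, n = 3 each; log2 fold change −1.01, limma adjusted p = 0.0059, and 0.0512 without shNC-3). The library shACAT2-3 stood apart. It held fragments on 36466 genes against 25337 to 27196 in the other libraries, and among protein-coding autosomal genes at 0 in the remaining libraries it carried 0.728 fragments per kilobase, against at most 0.0371. The pair shNC-2 and shNC-3 differed little, with a chi-square per gene of 1.73 against 12.1 to 46.0 for other pairs of a group. Nothing in the labels says that the libraries came from separate cultures, so p-values measure the spread between libraries, which may be technical.

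PLAU, the urokinase gene, had the clearest difference of the members, with a higher level in every shACAT2 library. The gene (ENSG00000122861) lies on the plus strand at chr10:73909177-73917497 (hg38), and its 5 annotated transcripts merge into 13 exons of 2950 bases. The 3 shNC libraries held 30, 18 and 33 PLAU fragments, or 0.665, 0.376 and 0.649 FPKM. The 3 shACAT2 libraries held 54, 43 and 45 fragments, or 1.21, 0.877 and 1.02 FPKM. The groups did not overlap, and the lowest library of all was shNC-2. Of the 16299 genes with at least 10 fragments in 3 libraries, 15.3% were likewise higher in every shACAT2 library than in every shNC library.

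PLAU averaged 0.563 ± 0.162 FPKM over the shNC libraries and 1.03 ± 0.165 FPKM over the shACAT2 libraries (SD, n = 3 each), a ratio of 1.83. A two-sided exact permutation test over the libraries gave p = 0.1, the smallest p that 3 against 3 libraries allow. On log2(FPKM + 1), where low levels make the difference smaller, limma gave a log2 fold change of 0.38 (standard error 0.16, 95% interval 0.011 to 0.75). Its unadjusted p was 0.045, a level that 12.8% of the 13832 genes tested reached with a higher value in shACAT2 cells, and its adjusted p was 0.201, above the threshold of 0.05 that 5.10% of those genes met. PLAU was the only member among these genes, whose mean had to reach 1 FPKM in a group, and it entered through the shACAT2 group alone.

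The recovered fragments gave a second view of PLAU, chosen after the data were seen, with limma-voom on the 16299 genes above. Here the log2 fold change of PLAU was 0.84 (standard error 0.27, 95% interval 0.21 to 1.46, unadjusted p = 0.014, adjusted p = 0.0999). In that fit 10.7% of the genes had an unadjusted p below 0.05 with a higher level in shACAT2 cells, and 7.74% had an adjusted p below 0.05. With libraries of the same replicate number taken as pairs, limma-voom gave PLAU a log2 fold change of 0.81 and an adjusted p of 0.0432, but 24.9% of all genes were called by this fit. Without shNC-2 the limma-voom log2 fold change was 0.59 (adjusted p = 0.342), the lowest with 1 library left out, and without shNC-3 it was 0.98, the highest.

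The background of shACAT2-3 accounted for an expected 2.15 of its 45 PLAU fragments, and without this library the limma-voom log2 fold change was 0.81. PLAU shares 916 exon bases with C10orf55 on the opposite strand, and no source used here gives the strand setting of the counting. C10orf55 had means of 0.0342 (shNC) and 0.0353 (shACAT2) FPKM, with at most 4 fragments in a library.

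**Figure D1:**
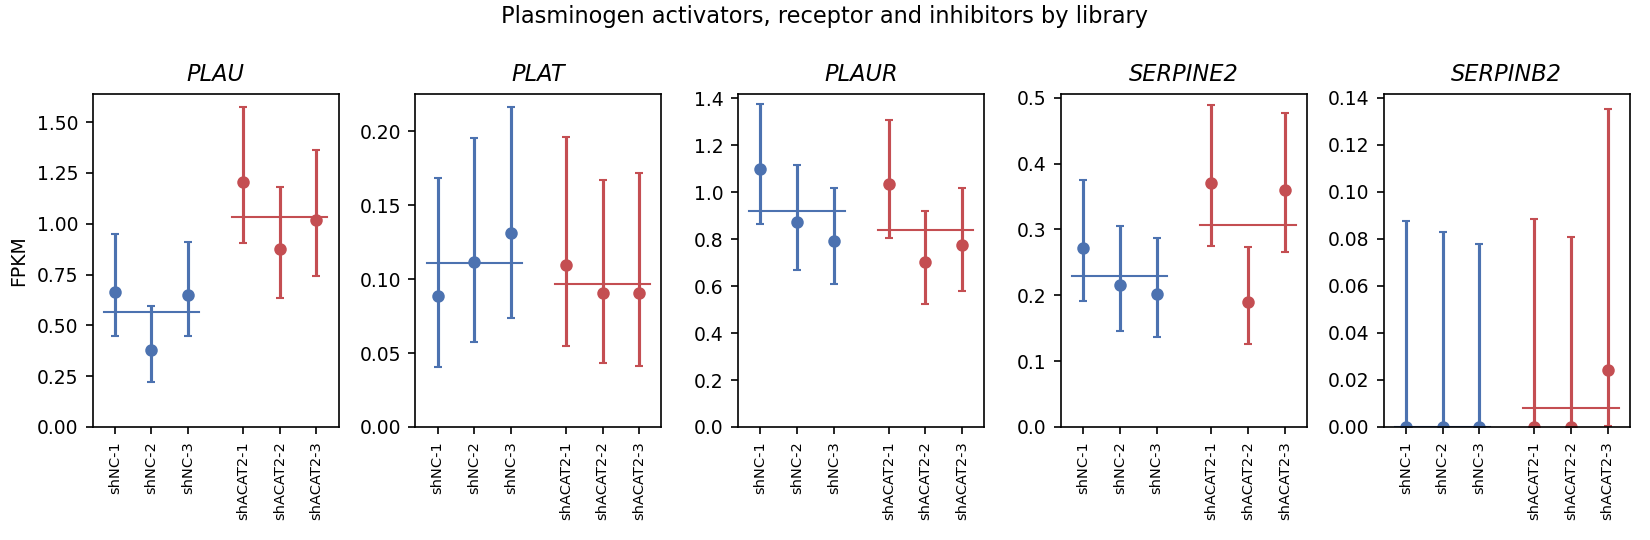
FPKM of the 5 members in each of the 6 libraries (blue, shNC; red, shACAT2), one panel per gene with its own axis from 0. Points are library values, vertical bars are exact 95% Poisson intervals of the fragment count, and horizontal lines are group means. The PLAU points of shACAT2 (0.877 to 1.21 FPKM) all lie above those of shNC (0.376 to 0.665 FPKM), while the groups overlap in the other panels.

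PLAT, the tissue-type activator gene, was barely expressed and showed no detectable difference. The gene (ENSG00000104368) lies on the minus strand of chromosome 8, from 42175233 to 42207724, with 12 transcripts that merge into 16 exons of 6618 bases. The shNC libraries held 9, 12 and 15 PLAT fragments (0.0889, 0.112 and 0.131 FPKM). The shACAT2 libraries held 11, 10 and 9 fragments (0.109, 0.0909 and 0.0906 FPKM). The shACAT2 values lay inside the range of the shNC values. The means were 0.111 ± 0.0213 and 0.0970 ± 0.0108 FPKM (SD, n = 3 each; two-sided exact permutation p = 0.4). The limma-voom log2 fold change was −0.23 with a 95% interval from −1.02 to 0.57 (adjusted p = 0.731), an interval that reaches from a fall to a rise. In shACAT2-3 an expected 4.82 of the 9 PLAT fragments were background.

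PLAUR, the gene of the urokinase receptor, was expressed at a level near that of its ligand and did not differ detectably. The gene (ENSG00000011422) lies on the minus strand at chr19:43646095-43670547, with 16 transcripts that merge into 10 exons of 4457 bases. The shNC libraries held 75, 63 and 61 PLAUR fragments (1.10, 0.872 and 0.794 FPKM). The shACAT2 libraries held 70, 52 and 52 fragments (1.03, 0.702 and 0.778 FPKM). The groups overlapped, and the library numbered 1 was the highest in each. The means were 0.922 ± 0.159 and 0.838 ± 0.174 FPKM (SD, n = 3 each), a ratio of 0.909 (two-sided exact permutation p = 0.5). The limma-voom log2 fold change was −0.19 (95% interval −0.67 to 0.28, adjusted p = 0.617). In shACAT2-3 an expected 3.24 of the 52 PLAUR fragments were background.

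By FPKM, urokinase and its receptor therefore stood in a different order in each group. Per kilobase, PLAUR was higher than PLAU in every shNC library and PLAU was higher than PLAUR in every shACAT2 library. In fragments, PLAUR was higher than PLAU in every library of both groups. The order thus rests on the lengths used, merged exons of 2950 bases for PLAU and 4457 for PLAUR. The lengths of the transcripts expressed were not measured. The exact Poisson intervals of the counts, in FPKM, overlapped between PLAU and PLAUR in every library but shNC-2. In shNC-2 they were 0.223 to 0.595 for PLAU and 0.670 to 1.12 for PLAUR. In shACAT2-1 they were 0.906 to 1.57 and 0.806 to 1.31. Outside shNC-2, these intervals thus do not separate the order within a library from counting error. Dividing PLAU by PLAUR FPKM gave 0.604, 0.432 and 0.817 in the shNC libraries. It gave 1.17, 1.25 and 1.31 in the shACAT2 libraries, and the groups did not overlap. Taken singly, 15.3% of the 16299 genes were likewise higher in every shACAT2 library, and the share among ratios of other genes was not tested. The mean ratio was 0.618 ± 0.193 in shNC and 1.24 ± 0.0714 in shACAT2 cells (SD, n = 3 each), and the difference in log2 ratio was 1.05 (two-sided exact permutation p = 0.1, the smallest possible; Benjamini-Hochberg adjusted p = 0.15 over 3 ratios). This ratio was chosen after the values were seen, and with 1 library left out its log2 difference lay between 0.82 and 1.28.

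The other ratios set urokinase against the tissue-type activator and protease nexin 1. PLAU over PLAT was 5.26 ± 2.08 in shNC and 10.6 ± 0.854 in shACAT2 cells, a log2 difference of 1.09 (SD, n = 3 each; exact permutation p = 0.1, adjusted p = 0.15). This ratio rests on 9 to 15 PLAT fragments per library, and in shACAT2-3 an expected 4.82 of the 9 were background. Its SD is thus no measure of its precision. The log2 difference was 0.80 without shNC-2 and 1.38 without shNC-1. PLAU over SERPINE2 rested on overlapping values, with a log2 difference of 0.54 (exact permutation p = 0.2, adjusted p = 0.2) that moved to 0.32 without shNC-2 and 0.34 without shACAT2-2.

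**Figure D2:**
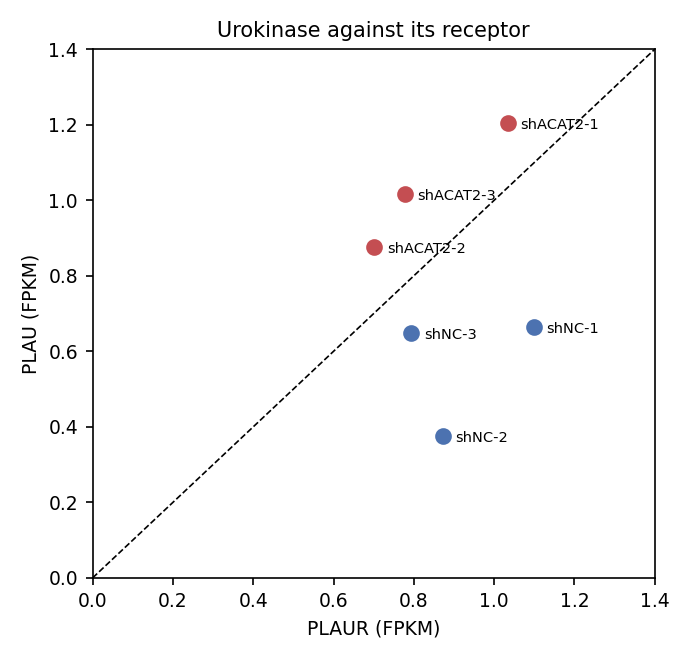
PLAU FPKM (vertical axis) against PLAUR FPKM (horizontal axis) in the 6 libraries (blue, shNC; red, shACAT2); the dashed line marks equal levels. The 3 shACAT2 libraries lie above the line, with PLAU to PLAUR ratios of 1.17 to 1.31, and the 3 shNC libraries lie below it, with ratios of 0.432 to 0.817. The exact Poisson intervals of the counts, in FPKM, overlap between PLAU and PLAUR in every library but shNC-2.

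SERPINE2, the gene of protease nexin 1, which inhibits urokinase, the tissue-type activator and thrombin, had scattered values in shACAT2 cells. The gene (ENSG00000135919) lies on the minus strand at chr2:223975112-224039319, with 10 transcripts that merge into 13 exons of 8891 bases. The shNC libraries held 37, 31 and 31 SERPINE2 fragments (0.272, 0.215 and 0.202 FPKM). The shACAT2 libraries held 50, 28 and 48 fragments (0.370, 0.189 and 0.360 FPKM). A pair of the shACAT2 libraries lay above all shNC libraries, but shACAT2-2 was the lowest of all. The means were 0.230 ± 0.0371 and 0.307 ± 0.102 FPKM (SD, n = 3 each), a ratio of 1.33 (two-sided exact permutation p = 0.4). The limma-voom log2 fold change was 0.30 (95% interval −0.40 to 0.99, adjusted p = 0.594). It was 0.61 without shACAT2-2 (adjusted p = 0.229) and 0.13 without shACAT2-3, in which an expected 6.47 of the 48 fragments were background.

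SERPINB2, the gene of plasminogen activator inhibitor 2, was at the limit of detection. The gene (ENSG00000197632) lies on the plus strand at chr18:63871692-63903890, and its 6 transcripts merge into 12 exons of 2748 bases, of which 547 are shared with SERPINB10 on the same strand. SERPINB2 had 0 fragments in the 3 shNC libraries and in shACAT2-1 and shACAT2-2. The lone fragment of SERPINB2 was in shACAT2-3 (0.0243 FPKM), where 2.00 background fragments were expected. With a limit of 3 fragments for a count of 0, SERPINB2 could reach 0.0633 to 0.0719 FPKM in the libraries without a fragment, so no fold change can be given. This limit covers counting error only, as do the wider exact intervals in the plot of the members by library.

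The members stood below the middle of the protein-coding genes ranked by mean FPKM. In shNC cells the order by mean FPKM was PLAUR, PLAU, SERPINE2, PLAT and SERPINB2, and in shACAT2 cells PLAU and PLAUR changed places. PLAUR exceeded 46.3% of protein-coding genes in shNC cells, PLAU 43.0%, SERPINE2 37.5% and PLAT 33.6%. In shACAT2 cells PLAU exceeded 47.3% and PLAUR 45.8%. Neighbours in this order whose ranges over the libraries overlapped were PLAUR and PLAU in shACAT2 cells, where the range of PLAUR reached 1.03 FPKM and that of PLAU began at 0.877 FPKM. In bulk RNA, expression by fewer cells and less RNA per cell cannot be told apart.

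Of 29 other genes of the plasminogen system, 16 were tested on log2(FPKM + 1), and 3 were higher in shACAT2 cells at an adjusted p below 0.05 and 0 were lower, against 5.10% of all genes tested in both directions. The median log2 fold change of the 16 was 0.26, beside 0.016 over all genes. The list was chosen with earlier results of these data known, so its counts and medians are no independent evidence. The genes called were ANXA2, S100A10 and ITGA3. With the replicate number as a block, 8 of the 16 were called, all higher, beside 1727 of all 13832 genes, against 706 without the block. The count was 0 without shNC-2 or without shNC-3 (4 genes with an unadjusted limma p below 0.05 in each case), 0 with these libraries averaged, and 1, ANXA2, without shNC-1 or without shACAT2-2. Calls over all genes fell too, to 101 of 13875 without shNC-2, 63 of 13882 without shNC-3 and 83 of 13838 with these averaged. They were 135 of 13918 without shNC-1 and 129 of 13959 without shACAT2-2. In limma-voom, 4 of 20 genes tested were higher and 0 lower, against 7.74% of all genes, ITGB5 being added. The median log2 fold change of the 20 was 0.20, beside −0.051 over all genes. The limma-voom count was 9 with the replicate block, 8 higher and 1 lower, 3 without shNC-1 or without shACAT2-2, and 1 without shNC-2 or without shNC-3.

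ANXA2 and S100A10 encode annexin A2 and its light chain, which together bind plasminogen and the tissue-type activator at the cell surface. ANXA2 measured 66.6, 56.3 and 58.3 FPKM in the shNC libraries and 140, 113 and 118 FPKM in the shACAT2 libraries. All shACAT2 values lay above all shNC values, and ANXA2 rose by 1.02 on the log2 scale (standard error 0.13, limma adjusted p = 0.0107). S100A10 measured 59.0, 50.4 and 49.5 FPKM in the shNC libraries and 121, 91.9 and 81.6 FPKM in the shACAT2 libraries (log2 fold change 0.86, standard error 0.17, limma adjusted p = 0.0352). The transcripts of this complex were thus far more abundant than those of the activators. ITGA3, the integrin alpha 3 subunit, which is known as a partner of uPAR, rose from 1.66 ± 0.033 to 3.04 ± 0.353 FPKM (SD, n = 3 each; limma adjusted p = 0.0270).

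The integrin beta 5 gene ITGB5 measured 7.48 ± 0.855 and 11.6 ± 2.10 FPKM (SD, n = 3 each), with a limma-voom adjusted p of 0.0362 and a limma adjusted p of 0.0777. The limma-voom call of ITGB5 held only without shACAT2-1 or without shACAT2-3 among the 6 omissions, and its adjusted p rose to 0.179 without shNC-3. With the replicate block, ITGB5 was called by both limma (adjusted p = 0.0253) and limma-voom (adjusted p = 0.00071).

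PLG, the gene of plasminogen itself, which is made mainly by the liver, had 0 fragments in 5 libraries and 1 in shACAT2-3. SERPINF2, the gene of the plasmin inhibitor alpha 2-antiplasmin, measured 0.184 ± 0.0712 and 0.210 ± 0.0719 FPKM (SD, n = 3 each). LRP1, the receptor that clears complexes of activators and serpins, measured 7.76 ± 0.641 and 7.94 ± 0.607 FPKM (SD, n = 3 each; limma adjusted p = 0.892).

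**Figure D3:**
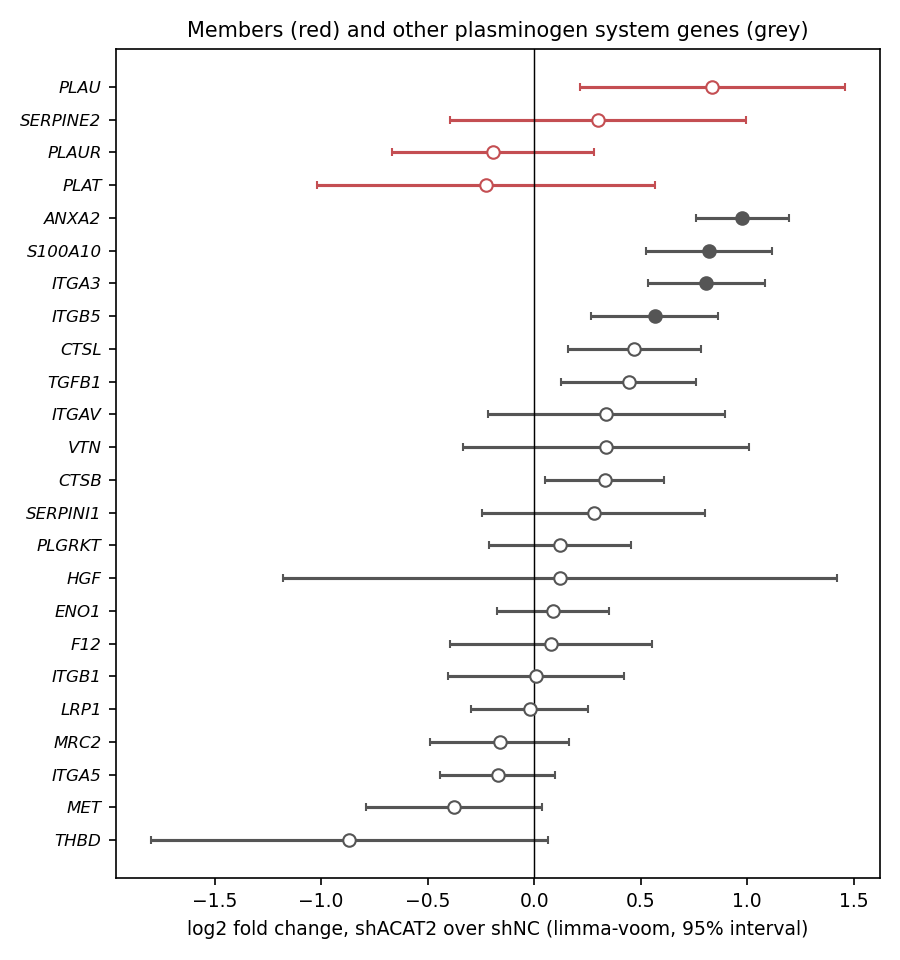
Log2 fold change of shACAT2 over shNC (horizontal axis, limma-voom, bars are 95% intervals) for 4 members (red) and 20 other plasminogen system genes (grey); filled points have an adjusted p below 0.05. The interval of PLAU (0.21 to 1.46) lies right of 0 but its point is open, and the intervals of SERPINE2, PLAUR and PLAT span 0.

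Of 21 further serpin genes, 3 were tested with limma and 0 were called (1 had an unadjusted p below 0.05), and of 5 tested with limma-voom 0 were called (2 with an unadjusted p below 0.05). Over all genes, limma called 5.10% and limma-voom 7.74%, so these few genes could hardly show a departure from that share. With the replicate number as a block, limma called SERPINH1 and limma-voom SERPINH1 and SERPINB8, all higher in shACAT2 cells. The block fits called 1727 of all 13832 genes in limma and 4061 of all 16299 in limma-voom. SERPINB8, which belongs to the same serpin clade as SERPINB2, measured 0.106 ± 0.0512 and 0.286 ± 0.0540 FPKM (SD, n = 3 each; limma-voom adjusted p = 0.0728). It held 5, 10 and 16 fragments in the shNC libraries and 27, 22 and 29 in the shACAT2 libraries. The limit of 10 fragments in 3 libraries was thus met through the shACAT2 group, where SERPINB8 was higher. Of 6 genes whose proteins share the Ly6 fold of uPAR, 2 were tested by both tools and 0 were called, with 0 at an unadjusted p below 0.05.

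The labelled cell type was checked against marker genes, since other cells can also make these proteins. None of 5 epithelial and none of 5 gastric markers reached a mean of 1 FPKM in either group. TFF1 and GKN1 were at 0 in every library, and EPCAM and KRT18 in shNC-1 and shNC-2. CDH1 was present in every library, at 0.222, 0.120 and 0.141 FPKM in shNC and 0.608, 0.828 and 1.15 FPKM in shACAT2. KRT8 lay between 0.385 and 0.785 FPKM and MUC6 between 0.0413 and 0.119 FPKM. The mesenchymal markers VIM, FN1 and ZEB1 (3 of 4) and the fibroblast markers COL1A1, COL1A2, DCN and LUM (4 of 5) passed a mean of 1 FPKM. CDH2, the other mesenchymal marker, reached at most 0.0808 FPKM, and PDGFRB, the other fibroblast marker, lay between 0.553 and 1.12 FPKM. The summed fibroblast markers ran from 102 to 107 FPKM in shNC and from 179 to 201 FPKM in shACAT2 libraries, in the same direction as PLAU and ANXA2. The summed mesenchymal markers ran from 253 to 298 and from 349 to 467 FPKM. VIM alone ran from 246 to 292 and from 340 to 461 FPKM, while FN1, ZEB1 and CDH2 overlapped between the groups. The summed epithelial markers ran from 0.505 to 0.830 and from 1.44 to 2.22 FPKM, and among them only CDH1 did not overlap. Endothelial markers (0 of 4, sums of 0.00558 to 0.0237 and 0.0116 to 0.444 FPKM) and leukocyte markers (0 of 6, sums of 0.267 to 0.526 and 0.772 to 0.951 FPKM) stayed under 1 FPKM each. The endothelial sum of 0.444 FPKM was that of shACAT2-3, the library with the raised background. VWF measured 0.257 FPKM there, against 0.0190 in shACAT2-1 and 0.0116 in shACAT2-2. CD14 was the highest leukocyte marker in each library, at 0.185 to 0.416 FPKM in shNC and 0.424 to 0.768 FPKM in shACAT2. The part of these markers in the differences of the members was not tested.

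The genes whose log2(FPKM + 1) followed PLAU most closely over the 6 libraries were HCCS (Pearson r = 0.998), HERPUD2 (r = 0.994) and LINC01116 (r = 0.992). The libraries fall into 2 groups that share a hairpin, and 594 of 13831 genes had an r above 0.9 with PLAU. None of the 3 genes passed the threshold for a difference between the groups (limma adjusted p = 0.153, 0.101 and 0.129).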

How the data were processed

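Total RNA of HGC-27 cells, 3 shNC and 3 shACAT2 libraries as labelled, was sequenced. The authors deposited FPKM values for 58735 genes. The submitters' processing notes name hg38, HISAT2 (2.0.5), featureCounts (1.5.0-p3) and DESeq2 (1.20.0), without roles or order. The sequencing and analysis were run by LC-Bio. Whole fragments (14086416 to 16067486 per library) were recovered from FPKM and gene length (tolerance 0.1 fragment). The exact 95% Poisson intervals cover counting error only.

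Differences were tested with limma (3.58.1, R 4.3.3, trend) on log2(FPKM + 1) for the 13832 genes whose mean reached 1 FPKM in a group, with Benjamini-Hochberg adjustment. limma-voom on recovered fragments (at least 10 in 3 libraries) was added after seeing the data. The fits were tested on simulated data, with changes placed only in genes whose mean reached 1 FPKM in a group. Members under that limit were thus not covered. Python 3.11.15 was used for permutation tests and figures. Gene models were taken from GENCODE and promoters from RefSeq. Promoter windows were taken for 4 of the 5 members, PLAT being left out, and protein sequences were not used here.

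The members and lists were chosen with earlier results of these data known, and 1 list gene is not reported here. Named genes were the members, ACAT2, list genes past the threshold, defining pathway genes and the 3 genes closest to each tested member. ITGB5, SERPINB8, SERPINH1, C10orf55 and the ratios to PLAU were chosen after their values were seen. Deviations of same-numbered libraries from their group means correlated at 0.445, 0.126 and 0.171, each above the limit of 0.1 for treating the numbers as pairs, although shNC-2 with shACAT2-3 (0.198) and shNC-3 with shACAT2-2 (0.141) correlated similarly. The labels do not say that the numbers mark pairs. The main fit was planned without pairs, and the block fits are given as alternatives. Alternatives were other scalings, filters and pseudocounts (0.1), the replicate block, averaging shNC-2 with shNC-3, and each library left out in turn.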

Additional observations from a re-analysis of the deposited data

How the results depend on the processing

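The direction of PLAU, higher in shACAT2 cells, was the same under all 22 alternatives, and its log2 fold change lay between 0.29 and 0.44 with 1 library left out (0.59 to 0.98 in limma-voom). Only limma-voom with the replicate block called it (0.81, adjusted p = 0.0432); limma on log2(FPKM + 1) with the block did not (adjusted p = 0.137). Without shACAT2-1, PLAU fell under the limit of 1 FPKM and was not tested. For PLAT the log2 fold change was −0.018 on log2(FPKM + 1), −0.011 when shNC-2 was averaged with shNC-3, −0.094 with a pseudocount of 0.1, −0.23 in limma-voom and −0.23 with the replicate block, and with 1 library left out −0.032 to −0.0044 on log2(FPKM + 1) and −0.39 to −0.084 in limma-voom. For PLAUR it was −0.065, against −0.19 in limma-voom and −0.19 with the block; leaving out 1 library gave −0.14 to 0.00015 on log2(FPKM + 1) and −0.31 to −0.082 in limma-voom. For SERPINE2 it was 0.085, against 0.27 with the pseudocount of 0.1, 0.30 in limma-voom and 0.35 with the block; 1 library left out gave 0.049 to 0.15 on log2(FPKM + 1) and 0.13 to 0.61 in limma-voom. A pseudocount of 1 damps low levels by construction.

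Of the other plasminogen system genes, 3 were called, against 1 with no filter, 8 with the replicate block, 0 when shNC-2 was averaged with shNC-3 (4 with an unadjusted p below 0.05), 1 at an unadjusted p below 0.05 together with a log2 fold change beyond 1, 4 in limma-voom, 9 with the block there (8 higher, 1 lower), and 0 to 4 (limma) or 1 to 6 (limma-voom) with 1 library left out. The calls over all genes moved as well. Limma called 706 of 13832, against 1727 with the block, 209 of 41161 with no filter and 83 of 13838 with shNC-2 and shNC-3 averaged. Limma-voom called 1261 of 16299, and 4061 with the block. With 1 library left out, limma called 63 to 862 genes and limma-voom 236 to 2096. The serpin count of 0 became 1 with the replicate block, 2 in limma-voom with the block and 0 to 1 with 1 library left out. The block changed no other call of a member. The causes were not tested. Depth limits the members: 9 to 15 fragments for PLAT and 0 or 1 for SERPINB2 per library.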
